A study of Mus musculus with 10 samples.

Results

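The genes described here encode the mitochondrial respiratory chain and the ATP synthase in mouse amygdala. Members were the array's gene symbols that start with Nduf, Uqcr or Atp5, that start with Cox4 to Cox8, or that are Sdha, Sdhb, Sdhc, Sdhd or Cyc1, without pseudogene symbols. This gave 86 of 22296 symbols, measured by 756 of 1256831 probe sets, each about 1 exon. By prefix, 37 were counted with complex I, 4 with complex II, 8 with complex III, 17 with complex IV and 15 with complex V. Ndufa4 and its paralogue Ndufa4l2 were counted with complex I by prefix only. A further 2 were complex I assembly factors. The other 3 carry such a prefix but are not subunits: Emc8 (Cox4nb on the array), a part of the ER membrane protein complex, Dmac2 (Atp5sl), known as a complex I assembly factor, and Dmac2l (Atp5s). Of the 86, 79 could be compared between genotypes, because at least 3 of their probe sets had a mean over all arrays above 4.94 (log2), the median over every probe set. The other 7 were Ndufa1, Ndufb4, Ndufc1, Cox5b, Cox7b2, Cox7c and Cox8c.

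The arrays held amygdala RNA of 3-month-old mice, 5 arrays of C57BL/6 wild type and 5 of neuropsin-/- mice that had been backcrossed to C57BL/6 for 12 generations. Neuropsin is a secreted serine protease, encoded by Klk8, and the design asks what its loss does to gene expression in this region. Each array held RNA of 3 animals, and with 15 animals per genotype the arrays were read as 5 pools per genotype. All 10 arrays held brains perfused with cold saline and RNA depleted of ribosomal RNA. The labels name no promoter or cell type for the deletion. Bulk tissue was measured, so fewer cells of a type and less RNA per cell cannot be told apart in any value given here.

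Electrons from NADH enter the chain at complex I and those from succinate at complex II, pass through ubiquinone to complex III and through cytochrome c to complex IV, where oxygen is reduced. Complexes I, III and IV pump protons across the inner membrane, and complex V, the ATP synthase, uses the return of the protons to make ATP. Neurons draw most of their ATP from this chain. The core of complexes I, III, IV and V is partly encoded by mitochondrial DNA, while all members described here are encoded in the nucleus.

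Many nuclear genes of the chain are known to share binding motifs of the factors NRF1, GABP (of the ETS family) and YY1 near their start sites. The window from 250 bases before to 50 bases after each start was searched on both strands for GCGCATGC (NRF1), CCGGAAG (ETS) and AAGATGGC (YY1) in the RefSeq promoters of GRCm38.p6, which held 76 promoters of 70 members. At least 1 of these motifs was present in 33 of the 76 (43.4%), against 13.3% of all 32851 promoters. The NRF1 letters were in 10 member promoters (13.2%, against 2.71% of all), the ETS letters in 17 (22.4%, against 8.86%) and the YY1 letters in 12 (15.8%, against 2.75%). By complex, a motif was found for 14 of 33 members of complex I, 2 of 3 of complex II, 3 of 4 of complex III, 3 of 12 of complex IV and 8 of 14 of complex V. A match is a match of letters, and binding was not measured. The windows of 4 members are shown because together they hold each of the motifs and because Atp5k and Cox6a1 are among the 6 members with the smallest p in the comparison of genotypes; capitals mark the matched letters, and the sequences run 5′ to 3′ on the gene's strand.
Atp5k, GRCm38.p6 chr5:108434350-108434649, minus strand: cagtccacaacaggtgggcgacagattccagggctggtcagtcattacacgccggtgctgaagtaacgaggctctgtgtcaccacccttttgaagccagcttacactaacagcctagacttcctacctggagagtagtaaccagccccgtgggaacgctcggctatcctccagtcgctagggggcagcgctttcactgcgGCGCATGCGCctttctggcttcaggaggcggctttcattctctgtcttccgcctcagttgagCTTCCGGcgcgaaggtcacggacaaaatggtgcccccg
Cox6a1, GRCm38.p6 chr5:115348909-115349208, minus strand: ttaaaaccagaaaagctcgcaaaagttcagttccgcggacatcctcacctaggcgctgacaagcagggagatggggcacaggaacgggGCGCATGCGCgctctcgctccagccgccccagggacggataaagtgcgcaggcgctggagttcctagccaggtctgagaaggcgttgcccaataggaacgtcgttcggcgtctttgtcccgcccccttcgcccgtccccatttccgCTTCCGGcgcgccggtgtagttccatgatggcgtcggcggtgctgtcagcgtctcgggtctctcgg
Sdhb, GRCm38.p6 chr4:140961021-140961320, plus strand: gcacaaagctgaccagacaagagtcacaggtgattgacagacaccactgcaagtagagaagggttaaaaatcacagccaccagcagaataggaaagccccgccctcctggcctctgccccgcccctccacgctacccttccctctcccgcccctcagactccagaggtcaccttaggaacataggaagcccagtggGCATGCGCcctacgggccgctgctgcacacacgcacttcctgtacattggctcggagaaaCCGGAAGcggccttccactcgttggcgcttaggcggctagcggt
Ndufs7, GRCm38.p6 chr10:80249199-80249498, plus strand: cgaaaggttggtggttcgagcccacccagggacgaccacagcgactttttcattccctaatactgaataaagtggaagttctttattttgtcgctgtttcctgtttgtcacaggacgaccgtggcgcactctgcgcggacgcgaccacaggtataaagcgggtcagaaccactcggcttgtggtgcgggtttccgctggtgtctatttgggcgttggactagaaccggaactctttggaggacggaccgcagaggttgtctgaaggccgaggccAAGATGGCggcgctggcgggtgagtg
In Atp5k and Cox6a1 the forward and the reverse form of the NRF1 letters overlap in 1 longer palindrome, and an ETS match lies close to the start. Counted from the start site as base 1, the ETS match begins at base 13 in Atp5k and at base 7 in Sdhb, and 16 bases before the start in Cox6a1. The YY1 match of Ndufs7 begins at base 25.

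As facts of the whole series, 16367 genes were compared, gene levels of any 2 arrays correlated at 0.958 to 0.987 over genes, and the first principal component (35.5% of the variance) set wild-type arrays 4 and 5 apart, at 20.5 and 23.5, from the other 8 arrays at -14.2 to 7.45. Knockout arrays 4 and 5 came next, at 7.45 and 3.14. Genes listed for the labelled region were mostly measured, with at least 3 probe sets above the filter. These were 8 of 8 for the basolateral amygdala and 7 of 9 for the central and medial amygdala. So were 5 of 5 choroid plexus and 6 of 8 hypothalamic markers, and the count does not identify the region. Klk8 over its 9 probe sets was at 5.17 ± 0.27 on the wild-type arrays and 5.02 ± 0.29 on the knockout arrays (SD, n = 5 each). The difference was -0.15 (exact permutation p = 0.413, two-sided), and this check did not separate the genotypes. It was -0.61 by the median over the probe sets (exact permutation p = 0.0794), -0.10 without wild-type arrays 4 and 5, -0.25 without wild-type array 3, -0.045 without knockout array 2 and -0.064 without wild-type array 1. Which exons the deletion covers is not in the labels. Where 5 values of a genotype are given, they are those of its arrays 1 to 5 in order. Gene levels below are means of log2 probe set values, differences are knockout minus wild type on the log2 scale, and p-values measure the spread between arrays only.

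No member of the chain passed the threshold for a change between the genotypes at the gene level. By limma, 0 of 79 tested members passed an adjusted p of 0.05, in a comparison where 0.0244% of all genes passed in either direction (0.0183% lower and 0.00611% higher in the knockout). The smallest adjusted p of a member was 0.673, for Cox4i2. At an unadjusted p under 0.05, 6 members were lower and 0 higher in the knockout, or 7.59% of members beside 6.98% of all genes (4.14% lower, 2.84% higher), a share near the background. In no member were the 5 knockout arrays all below or all above the 5 wild-type arrays, where 1.55% of all genes were (0.623% lower, 0.923% higher).

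The differences were small and mostly below 0. Of the 79 members, 59 had a difference below 0 and 20 above, with a median of -0.036, while 50.7% of all genes were below 0 with a median of -0.0019. The difference was under 0.1 in size in 53 of the 79, and the median within-genotype SD of a member was 0.17 (all genes, 0.15). The 95% intervals reached a median of 0.22 to each side; 75 of the 79 lay wholly within 0.5 of 0, and all bounds were between -0.71 and 0.47. The median of the members moved by more than 1.5 times when 1 array was left out: it was -0.017 without wild-type array 1 and also without array 3, -0.0016 without wild-type array 2, -0.020 without knockout array 1, -0.063 without knockout array 2, and -0.075 without wild-type array 4 or 5. Members below 0 numbered 40 of 79 without wild-type array 2, beside 43.5% of all genes. They numbered 69 without wild-type array 5, beside 57%, and lay between these counts with any other array left out.

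**Figure D1:**
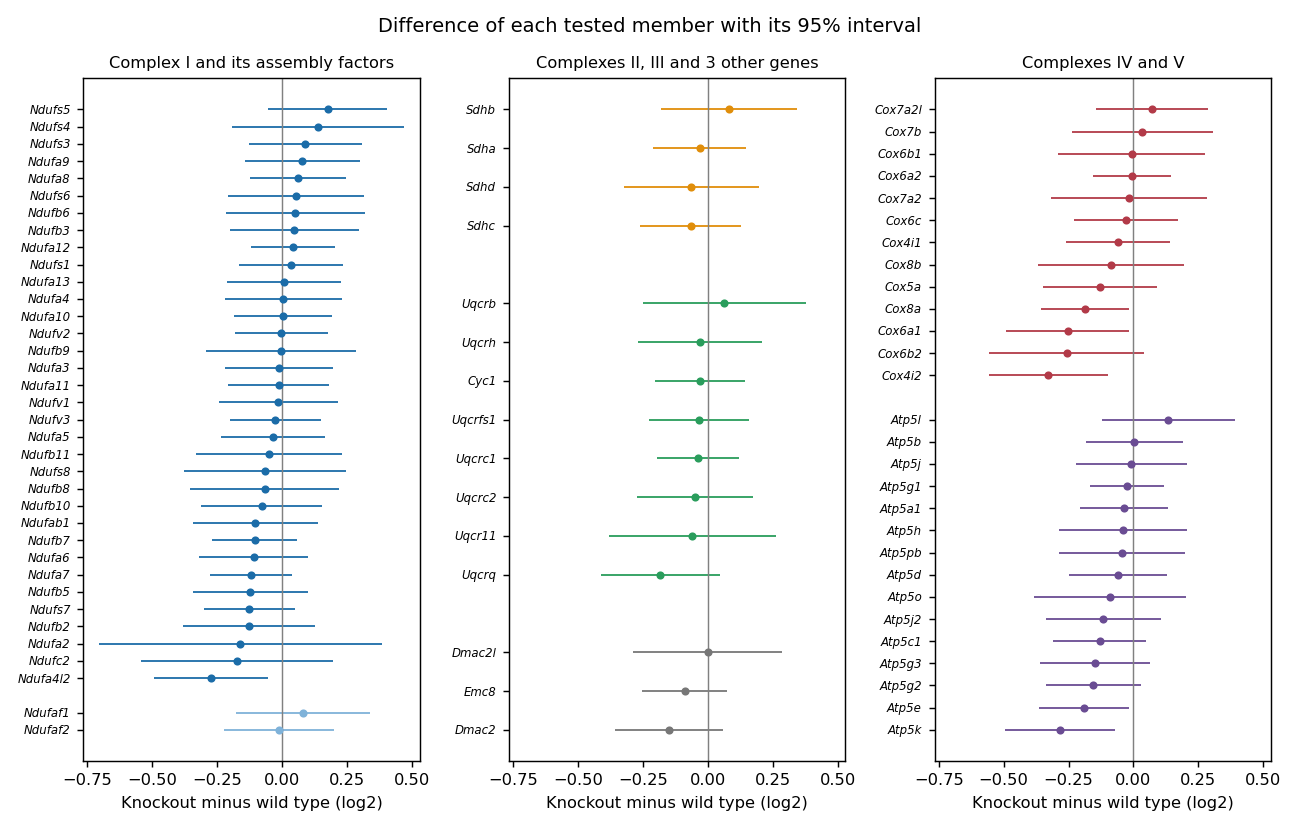
Difference between knockout and wild type of each of the 79 tested members (points) with its 95% interval from limma (lines), on a log2 scale, grouped by complex; the pale points are the 2 complex I assembly factors and the grey ones the 3 genes that are not subunits. Intervals of 73 of the 79 members contain 0, and the 6 that do not (Cox4i2, Cox6a1, Cox8a, Atp5k, Atp5e and Ndufa4l2) lie below it.

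What the members shared was their movement from array to array within each genotype. The mean deviation of the 79 members from their own 10-array means was 0.11, 0.18, 0.083, -0.098 and -0.14 on wild-type arrays 1 to 5, and -0.11, 0.080, -0.036, -0.025 and -0.037 on knockout arrays 1 to 5. Wild-type arrays 1 to 3 and knockout array 2 were thus high, and wild-type arrays 4 and 5 and knockout array 1 low. The means of the genotypes were 0.026 ± 0.14 for wild type and -0.026 ± 0.068 for the knockout (SD, n = 5 each), and the genotypes overlapped. Each of complexes I to V followed this pattern: all 5 were above 0 on wild-type arrays 1, 2 and 3 and on knockout array 2, and all 5 were below 0 on wild-type arrays 4 and 5 and on knockout array 1.

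**Figure D2:**
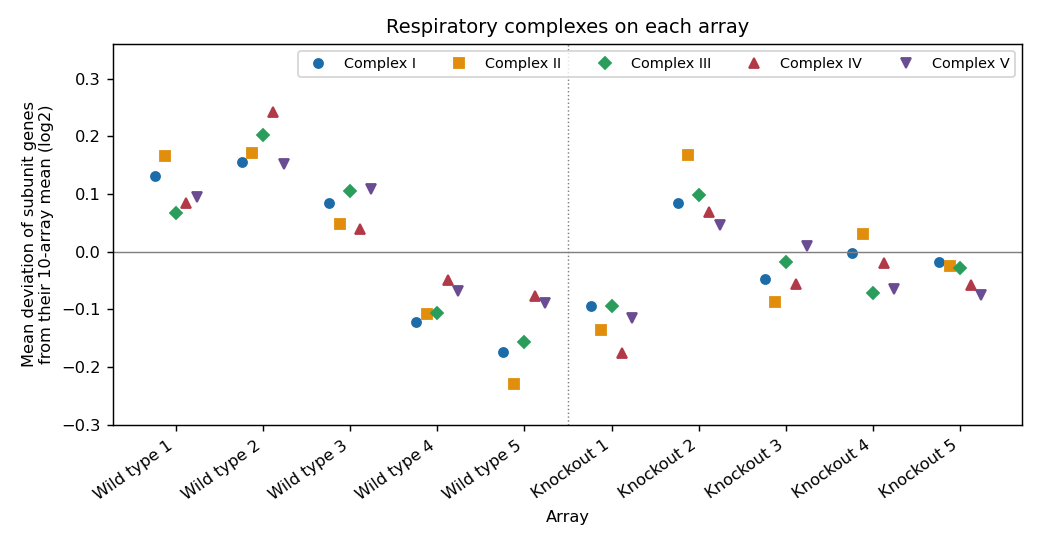
Mean deviation of the tested subunit genes of each complex from their 10-array means (log2, vertical axis) on each array, with 1 symbol per complex and the genotypes split by the dotted line. All complexes are high on wild-type arrays 1 to 3 and low on wild-type arrays 4 and 5, where complex II reaches -0.23, and on knockout array 1, where complex IV reaches -0.18.

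All genes together were high and low on mostly the same arrays, by less. On wild-type array 2, 89.9% of the members but 72.6% of all genes were above their own 10-array mean, and on wild-type array 4 the shares were 20.3% and 32.3%. On knockout array 1 they were 27.8% and 46.1%, and on knockout array 2 they were 73.4% and 61.5%. The median deviation of the members minus that of all genes was 0.087 on wild-type array 2, -0.078 on wild-type array 5 and -0.10 on knockout array 1, the highest and the 2 lowest of the 10 arrays. Wild-type array 5 was the lowest array for 27 members and knockout array 1 for 23, or 34.2% and 29.1% of the members, beside 21.4% and 11.8% of all genes.

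**Figure D3:**
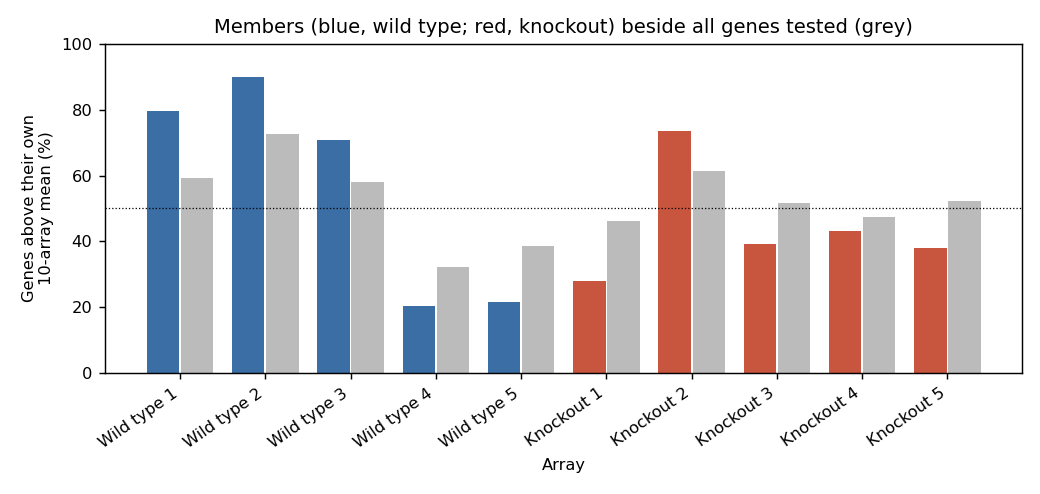
Share of genes (percent, vertical axis) above their own 10-array mean on each array, for the 79 tested members (blue, wild type; red, knockout) and for all 16367 genes tested (grey); the dotted line is at 50%. The members lie above all genes on wild-type arrays 1 to 3 and knockout array 2, and below them on the other 6 arrays.

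The spread was wider among the wild-type arrays. The SD was larger in wild type in 60 of 79 members (75.9%), near the 73.2% of all genes, with a median of 0.20 in wild type and 0.14 in the knockout (0.17 and 0.11 over all genes). Wild-type arrays 4 and 5 were both below wild-type arrays 1, 2 and 3 in 50 of the 79 members (63.3%), beside 40.4% of all genes. This held for 24 of 34 members of complex I, 4 of 4 of complex II, 6 of 8 of complex III, 6 of 13 of complex IV and 6 of 15 of complex V. Without wild-type arrays 4 and 5, which stand apart on the first component, 75 of the 79 differences were below 0 with a median of -0.14, 20 members had an unadjusted p under 0.05 (all lower; 25.3%, beside 11.2% of all genes), and 0 passed (smallest adjusted p 0.194 by limma). In that comparison 65.9% of all genes were below 0, with a median of -0.048. Those 2 arrays were low for the members, so leaving them out of 1 genotype lowers the differences by design. Without replicates 4 and 5 of both genotypes, 73 of the 79 differences were below 0, beside 65.7% of all genes. There 9 members had an unadjusted p under 0.05 (11.4%, beside 7.14% of all genes), with a smallest adjusted p of 0.621 by limma.

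Complex I carries electrons from NADH to ubiquinone. Of the 34 tested genes counted with it by prefix, 21 were below 0 and 13 above, with a median of -0.014, and 0 passed. Only Ndufa4l2, described below, had an unadjusted p under 0.05, beside 6.98% of all genes. None of the core subunits, which hold the flavin and the iron-sulfur clusters, passed: Ndufs1 differed by 0.03 (SE 0.09), Ndufv1 by -0.01 (SE 0.11), Ndufs8 by -0.07 (SE 0.15) and Ndufs7, which carries the last cluster before ubiquinone, by -0.13 (SE 0.08). Ndufs1 was at 9.09, 8.91, 9.06, 8.77 and 8.61 on wild-type arrays 1 to 5 and at 8.93, 8.90, 8.99, 8.87 and 8.90 on knockout arrays 1 to 5. The 5 knockout values lay inside the wild-type range, whose low end was wild-type arrays 4 and 5.

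The accessory subunit Ndufs4, whose loss in mice is a model of Leigh syndrome, had the third largest spread within genotype (SD 0.30) of the 79 tested members. It was at 7.63, 7.38, 7.54, 7.01 and 6.64 in wild type and at 7.35, 7.26, 7.54, 7.37 and 7.38 in the knockout. Wild-type arrays 4 and 5 were the 2 lowest of the 10. Its difference of 0.14 (SE 0.16; limma adjusted p = 0.875) became -0.14 without those 2 arrays. Ndufs5, an accessory subunit, gave the highest difference of any tested member, 0.17 (SE 0.11; limma adjusted p = 0.760), with 7.58, 7.62, 7.56, 7.41 and 7.09 in wild type and 7.40, 7.69, 7.61, 7.80 and 7.63 in the knockout. Only wild-type array 5 was below all knockout arrays.

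Ndufa4l2, a paralogue of Ndufa4 known as a target of hypoxia-inducible factor, had the lowest difference in this group. It was at 5.30, 5.74, 5.64, 5.69 and 5.60 in wild type and at 5.15, 5.21, 5.29, 5.59 and 5.38 in the knockout. Wild-type array 1 fell among the knockout values and the other 4 wild-type arrays were above all 5 of them. The difference was -0.27 (SE 0.10; limma adjusted p = 0.693). Ndufa4 itself, counted here by its prefix although it is now regarded as a complex IV subunit, was at 9.62 ± 0.24 on the wild-type arrays and 9.62 ± 0.08 on the knockout arrays (SD, n = 5 each). Ndufa7, an accessory subunit, was at 7.32 ± 0.11 and 7.20 ± 0.05 (SD, n = 5 each), a difference of -0.12 (SE 0.07).

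Ndufa2 and Ndufc2, also accessory subunits, had the 2 largest spreads of the tested members (SD 0.52 and 0.34). Ndufa2 was at 7.58 on wild-type array 1 and between 5.87 and 6.61 on the other 9 arrays, and its difference of -0.16 (SE 0.25) turned to 0.13 without that array. Among the untested members, Ndufc1, with 2 probe sets, had a larger spread (SD 0.90) and ranged from 5.73 on wild-type array 5 to 8.86 on knockout array 3. The assembly factors Ndufaf1 and Ndufaf2, which help to build complex I and are not part of it, differed by 0.08 (SE 0.12) and -0.01 (SE 0.10).

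Complex II, succinate dehydrogenase, also works in the citric acid cycle. All 4 subunits were tested and 0 passed, with a median difference of -0.048. The flavoprotein Sdha was at 9.89 ± 0.14 on the wild-type arrays and 9.86 ± 0.10 on the knockout arrays (SD, n = 5 each). Sdhb, the iron-sulfur subunit, was at 8.47, 8.80, 8.34, 8.27 and 8.17 in wild type and at 8.39, 8.67, 8.19, 8.58 and 8.62 in the knockout, a difference of 0.08 (SE 0.12). The membrane anchors Sdhc and Sdhd differed by -0.07 (SE 0.09) and -0.06 (SE 0.12). In each of the 4, wild-type arrays 4 and 5 were below wild-type arrays 1 to 3.

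Complex III passes electrons from ubiquinol to cytochrome c. Of its 8 subunits 7 were below 0 and 1 above, with a median of -0.036, and 0 passed. The catalytic subunits differed little: cytochrome c1 (Cyc1) by -0.03 (SE 0.08) and the Rieske iron-sulfur protein Uqcrfs1 by -0.03 (SE 0.09). The core proteins Uqcrc1 and Uqcrc2 differed by -0.04 (SE 0.07) and -0.05 (SE 0.10). Uqcrq, a small subunit, had the lowest difference, -0.18 (SE 0.11; limma adjusted p = 0.747). Its values were 7.53, 7.74, 7.70, 7.39 and 7.52 in wild type and 7.02, 7.54, 7.57, 7.43 and 7.41 in the knockout, with knockout array 1 lowest. Uqcrb, a ubiquinone-binding subunit, was the only one above 0, by 0.06 (SE 0.15), and turned to -0.08 without wild-type array 5, where it was at 7.75 beside 8.12 to 8.64 on the other 9 arrays.

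Complex IV, cytochrome c oxidase, had 13 tested nuclear subunits, 11 below 0 and 2 above, with a median of -0.059. Of its 13, 0 passed and 3 had an unadjusted p under 0.05, beside 7.59% of all tested members and 6.98% of all genes. Several of its subunits come in isoforms, of which one is broad and another tied to a tissue or state. The subunit 4 pair gave the lowest difference of all tested members: Cox4i2, the isoform known from lung and from oxygen sensing, was at 6.49, 6.73, 6.33, 6.67 and 6.25 in wild type and at 6.04, 6.30, 5.96, 6.27 and 6.26 in the knockout. The lowest wild-type array, array 5, fell among the knockout values, and the other 4 were above all knockout arrays. The difference was -0.33 (SE 0.11; 1.25-fold; limma adjusted p = 0.673) and stayed between -0.39 and -0.27 when any 1 array was left out. The common isoform Cox4i1 was at 9.81 ± 0.11 on the wild-type arrays and 9.75 ± 0.18 on the knockout arrays (SD, n = 5 each), a difference of -0.06 (SE 0.09). The difference between the isoforms was not tested.

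In subunit 6A, the broad isoform Cox6a1 was at 9.81, 9.46, 9.31, 9.24 and 9.30 in wild type and at 9.30, 9.15, 9.21, 8.94 and 9.26 in the knockout. Wild-type arrays 1 and 2 were the 2 highest, and wild-type arrays 4 and 5 lay among the knockout values. Its difference was -0.25 (SE 0.11; limma adjusted p = 0.693), and -0.16 without wild-type array 1. The muscle and heart isoform Cox6a2 was at 7.25 ± 0.09 and 7.24 ± 0.05 (SD, n = 5 each), a difference of -0.01 (SE 0.07). In subunit 6B, Cox6b1 differed by -0.01 (SE 0.13) and the testis isoform Cox6b2 by -0.26 (SE 0.14; limma adjusted p = 0.733).

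In subunit 8, the broad isoform Cox8a was at 10.24, 10.23, 10.01, 10.03 and 10.21 in wild type and at 9.81, 10.05, 9.91 and 10.01 on knockout arrays 1 to 4 and just below 10 on array 5. Wild-type arrays 1, 2 and 5 were above all knockout arrays, and wild-type arrays 3 and 4 were among them. The difference was -0.19 (SE 0.08; limma adjusted p = 0.693). The muscle isoform Cox8b differed by -0.09 (SE 0.13), and the testis isoform Cox8c had 2 probe sets above the filter and was not tested. In subunit 7, Cox7a2 differed by -0.02 (SE 0.14), Cox7b by 0.03 (SE 0.13) and Cox7a2l, known for joining complexes III and IV into supercomplexes, by 0.07 (SE 0.10). Cox5a, a core-bound subunit, differed by -0.13 (SE 0.10). None of the 4 probe sets of Cox7b2 passed the filter, and Cox7a1 was not analysed here.

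**Figure D4:**
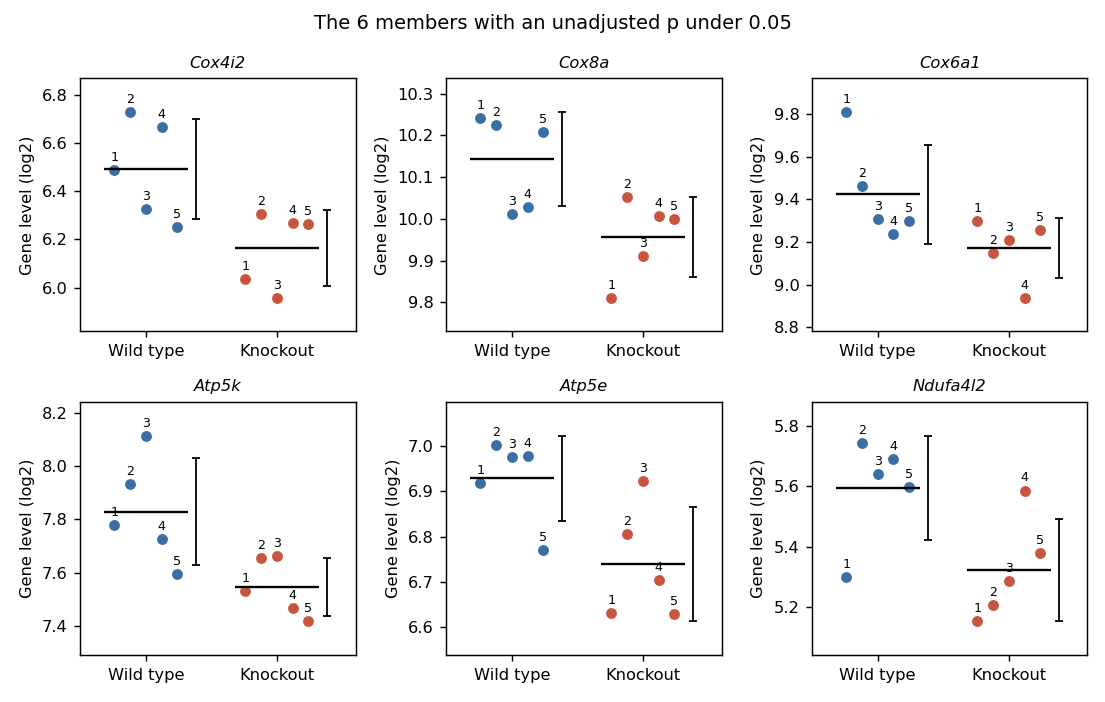
Gene levels (log2, vertical axes with their own ranges) of the 6 members with an unadjusted p under 0.05 on each of the 5 wild-type (blue) and 5 knockout (red) arrays; numbers are array numbers, lines are means and brackets are 1 SD to each side. In all 6 the mean is lower in the knockout, by 0.19 to 0.33, and in all 6 the arrays of the genotypes overlap.

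Complex V, the ATP synthase, had 15 tested members, 13 below 0 and 2 above, with a median of -0.061. Of its 15, 0 passed and 2 had an unadjusted p under 0.05, beside 6.98% of all genes. The catalytic head stayed close to 0: Atp5b, the catalytic beta subunit, was at 11.98 ± 0.11 on the wild-type arrays and 11.98 ± 0.15 on the knockout arrays, and Atp5a1, the alpha subunit, at 10.38 ± 0.10 and 10.34 ± 0.11 (SD, n = 5 each). Atp5c1, the gamma subunit of the central stalk, differed by -0.13 (SE 0.08). Atp5e, the epsilon subunit of the same stalk, was at 6.92, 7.00, 6.98, 6.98 and 6.77 in wild type and at 6.63, 6.81, 6.92, 6.70 and 6.63 in the knockout. Wild-type array 5 was below knockout arrays 2 and 3, and wild-type array 1 was level with knockout array 3. Its difference was -0.19 (SE 0.08; limma adjusted p = 0.693).

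In the membrane part, Atp5k, subunit e, which helps synthase dimers to form, was at 7.78, 7.93, 8.12, 7.72 and 7.60 in wild type and at 7.53, 7.66, 7.66, 7.47 and 7.42 in the knockout. Wild-type array 5 was the only wild-type array below a knockout array. The difference was -0.28 (SE 0.10; 1.22-fold; limma adjusted p = 0.693), and between -0.34 and -0.21 when any 1 array was left out. Its partner in dimer formation, subunit g (Atp5l), was the highest of the complex, at 0.13 (SE 0.12). The 3 genes of the identical c subunit, which forms the rotating ring, differed by -0.03 (SE 0.07; Atp5g1), -0.15 (SE 0.09; Atp5g2) and -0.15 (SE 0.10; Atp5g3), with limma adjusted p-values of 0.735 or more. The genes that are not subunits, Dmac2, Emc8 and Dmac2l, differed by -0.15 (SE 0.10), -0.09 (SE 0.08) and -0.0011 (SE 0.13).

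Among single probe sets, 680 of the 756 member probe sets were above the filter (89.9%, beside 76.4% of all probe sets with 1 gene). By limma 0 passed, beside 0.00239% of all probe sets tested, and the smallest adjusted p was 0.687; 16 were lower and 7 higher at an unadjusted p under 0.05, or 3.38% beside 5.97%. Differences below 0 made up 60.1% of the member probe sets and 49.7% of all probe sets tested. Of the 628415 probe sets tested, 238335 were in tested genes, so the shares over all also cover probe sets outside them. The genotypes did not overlap in 5 member probe sets, 3 lower and 2 higher in the knockout, beside 0.409% and 0.693% of all probe sets tested. The smallest p was that of probe set 5470062 of Atp5k, at 6.45, 5.91, 6.45, 6.07 and 5.85 in wild type and 5.25, 5.73, 5.45, 5.13 and 5.41 in the knockout, a difference of -0.76 (SE 0.18). There the highest knockout array was below the lowest wild-type array, while the other 4 probe sets of Atp5k differed by -0.27 to -0.09. Probe set 4933166 of Cox4i2 had no overlap of the genotypes either, with a difference of -0.73 (SE 0.18), and the 7 probe sets of this gene ranged from -0.73 to -0.05, all below 0.

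Some genes held probe sets that differed in opposite directions. In Atp5l, probe set 5020465 was at 4.88, 5.37, 5.01, 5.49 and 5.30 in wild type and at 5.50, 6.08, 6.67, 5.88 and 5.94 in the knockout, a difference of 0.80 (SE 0.21). The knockout arrays were all above the wild-type arrays, and the other 3 probe sets of Atp5l ranged from -0.35 to 0.14. In Atp5g1, probe set 5219828 differed by 0.53 (SE 0.16), again without overlap of the genotypes, while the other 4 ranged from -0.36 to -0.05. In Ndufa4l2, probe set 4861352 differed by -1.06 (SE 0.28) and the other 4 by -0.45 to 0.31. Probe set 4709052 of Ndufv2, the second flavoprotein subunit of complex I, differed by 0.53 (SE 0.22), and the 13 probe sets of this gene had a median of -0.053.

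Exon usage asks whether 1 probe set departs from the other probe sets of its gene. By limma's diffSplice 0 of the 79 members passed at an adjusted p of 0.05, beside 1.69% of all genes, and the smallest values were 0.144 for Atp5g1, 0.154 for Atp5l and 0.163 for Ndufa4l2. When each probe set had its own variance, 0 members passed too, beside 0.0367% of all genes. Atp5g1 passed without wild-type array 1 and Atp5e without the intensity filter.

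**Figure D5:**
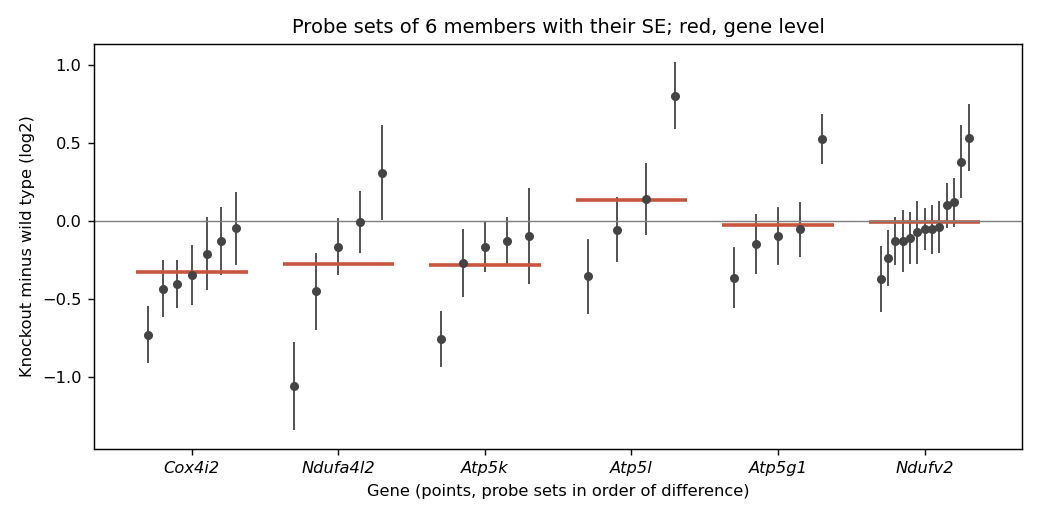
Differences between knockout and wild type (log2, vertical axis) of the single probe sets above the filter in the 6 members that hold the 3 lowest-p probe sets in each direction; points are probe sets in order of their difference, lines are 1 SE to each side and red bars are the gene level. In Cox4i2 and Atp5k all points are below 0, and in Atp5l and Atp5g1 1 probe set stands above the others, at 0.80 and 0.53.

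Chromosome 7 carries Klk8 and, in the reference gene table, 9 tested members. Of these 0 passed, and all 9 differences were below 0, as were 59 of all 79 tested members. They ranged from -0.26 (Cox6b2) to -0.01 (Cox6a2 and Cox6b1). Ndufc2 was at -0.17 (SE 0.17), Dmac2 at -0.15 (SE 0.10), Ndufab1, the mitochondrial acyl carrier protein, at -0.10 (SE 0.11) and Uqcrc2 at -0.05 (SE 0.10). With each array centred on its median, Cox6a2, Cox6b1 and Ndufa3 turned to 0.0090, 0.0090 and 0.0025. The member nearest to Klk8 was Cox6b1, 86 genes away, at 9.06 ± 0.28 on the wild-type arrays and 9.05 ± 0.21 on the knockout arrays (SD, n = 5 each).

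In lists of genes that build or serve the chain, 0 genes passed by limma; the complex I assembly list includes the members Ndufaf1, Ndufaf2 and Dmac2. Of 17 assembly factors of complex I, 10 were below 0 and 7 above, with a median of -0.013 and 0 at an unadjusted p under 0.05. Of 9 of complexes II and III, 3 were below and 6 above (median 0.027), and of 3 of complex V, 1 was below and 2 above. Of 20 assembly factors of complex IV, 13 were below and 7 above (median -0.0099). Cox14, which takes part in the synthesis of the mitochondrially encoded Cox1, differed by 0.19 (SE 0.08, limma adjusted p = 0.693). It had the only unadjusted p under 0.05 of the 20, beside 6.98% of all genes. Genes named Ndufaf, Uqcr or Atp5 only under their current symbols, which include subunits such as Uqcr10, were not members; of 9 tested, 7 were below 0 and 2 above, with a median of -0.076. None of the 13 protein genes of mitochondrial DNA was tested here.

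Among 18 genes of the mobile electron carriers, ubiquinone synthesis and electron entry, 7 were below 0 and 11 above, with a median of 0.023. Of the 18, 2 had an unadjusted p under 0.05, both lower, beside 6.98% of all genes (4.14% lower). Cycs, cytochrome c itself, differed by 0.23 (SE 0.16). Etfb, a subunit of the flavoprotein that brings electrons from fatty acid oxidation to ubiquinone, was at 8.09, 8.24, 7.89, 7.86 and 7.94 in wild type and at 7.68, 7.82, 7.45, 7.70 and 7.57 in the knockout. The genotypes did not overlap, and the difference of -0.36 (SE 0.09) had an adjusted p of 0.489 by limma. Etfb lies on chromosome 7, as Klk8 does, which was looked up after its values were seen. A link between its difference and the deletion was not tested.

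Of 7 carriers of ADP, ATP and phosphate, 5 were below 0 and 2 above (median -0.027), with Slc25a31, an ADP/ATP carrier of testis, at -0.18 (SE 0.08; limma adjusted p = 0.711). Of 14 regulators of mitochondrial genes, 4 were below 0 and 10 above (median 0.030); Tfam, which packages and transcribes mitochondrial DNA, differed by 0.17 (SE 0.10). Of 15 citric acid cycle enzymes, 3 were below 0 and 12 above (median 0.020), from Mdh2 at -0.03 (SE 0.08) to Dld at 0.16 (SE 0.14). All of these lists were low on wild-type arrays 4 and 5: the mean deviation of the citric acid cycle list was -0.10 and -0.24 there, that of the regulators -0.13 and -0.16, and that of the complex I assembly factors -0.14 and -0.23. In the regulators and the citric acid cycle list, and in the assembly factors of complexes II, III and V, 0 genes had an unadjusted p under 0.05. On knockout array 1, where the members were at -0.11, the regulators were at 0.027, the complex IV assembly factors at -0.0021 and the citric acid cycle enzymes at -0.048. The genes named only under current symbols were at -0.11 there, the carriers of ADP, ATP and phosphate at -0.094, the assembly factors of complexes II and III at -0.053, those of complex I at -0.027 and of complex V at 0.048, and the electron carrier list at -0.014.

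Levels of marker lists of other cells and regions differed between arrays, and in most lists the median difference between genotypes was below 0, but 1 marker alone, Hbb-b1, passed by limma. Of the tested myelin markers 7 of 7 were below 0 (median -0.28), with mean deviations of -0.42 to 0.53 on the wild-type and -0.40 to 0.0030 on the knockout arrays. Of the hypothalamic markers 6 of 6 were below 0 (median -0.56), with mean deviations of 0.055 to 0.78 on the wild-type and -0.45 to -0.19 on the knockout arrays, which do not overlap. By gene, the genotypes did not overlap in Pmch (-1.88) and Oxt (-0.63) but overlapped in Avp, Sim1, Agrp and Pomc. Striatal or intercalated cell markers (7 of 7 below 0; median -0.20), choroid plexus (5 of 5; -0.33), central and medial amygdala (7 of 7; -0.16), microglia (7 of 7; -0.054), endothelium (4 of 4; -0.035), interneurons (6 of 7; -0.12), astrocytes (4 of 6; -0.024) and red blood cells (2 of 2) were on the same side. Excitatory neuron markers (1 of 5 below 0, median 0.11) and basolateral amygdala markers (2 of 8, 0.10) were not. Of the 2 red blood cell markers, Hbb-b1 was lower in the knockout by 1.81 (SE 0.20, limma adjusted p = 0.00315). The other, Alas2, differed by -0.088 (SE 0.14) and its genotypes overlapped. Whether the amount of blood differed was not tested. On wild-type arrays 4 and 5 the excitatory neuron list was at -0.21 and -0.20 and the astrocyte list at -0.19 and -0.16. The part of these lists in the members' values was not tested.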

How the data were processed

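Gene expression was measured on 10 exon arrays. The authors deposited RMA values on a log2 scale for every probe set, made with Affymetrix Expression Console (per the labels). For the software version and the annotation's build, nothing was given in the sources used here. RMA sets all arrays to 1 distribution, so a shift shared by most genes is reduced, and arrays give no read depth; their number, 5 per genotype, limits the precision. The platform annotation gave the gene names: 318760 probe sets had 1 gene and 6684 several, and 25 member probe sets that share a second gene were left out. Of the 22296 symbols, 18006 were current, 4227 were updated through the reference gene table (5 of them members) and 63 were kept.

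The gene level was the mean of a gene's probe sets whose mean over the 10 arrays exceeded 4.94, with at least 3 such probe sets. Genotypes were compared with limma 3.58.1 (lmFit, eBayes, diffSplice) in R 4.3.3 over all 16367 genes or 628415 probe sets, two-sided, with Benjamini-Hochberg adjustment and a threshold of 0.05; exact permutation was used for Klk8. On simulated data of this size, the test recovered 64 of 100 genes changed by 0.5 and 98 of 100 changed by 1. It also called 7 unchanged genes. The simulated noise was independent in each gene and equal in both genotypes, unlike the arrays here. These shares therefore do not give the sensitivity on the real arrays. Motifs were matched as exact letters in RefSeq promoters; 70 members matched by symbol.

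The members and lists were chosen with earlier results of these data known. Named with values were members of smallest p in each group and direction, core subunits, isoform sets, members on chromosome 7, the 3 member probe sets of smallest p in each direction and members of extreme spread. Untested members, Etfb's chromosome and the array-by-array counts were added after their values were seen. Alternatives were another normalization or centring, filters, array weights, a robust prior, other summaries, the replicate block and arrays left out.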

Additional observations from a re-analysis of the deposited data

Results flagged for a closer look

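In 3 of the 116 genotype groups of 5 arrays examined, 1 array lay far from the other 4 of its genotype; chance gives about 1 in 20. Atp5c1, the gamma subunit of the ATP synthase, was at 9.29 on knockout array 1, below the 9.46 to 9.48 of the other knockout arrays. Ndufa2, an accessory subunit of complex I, was at 7.58 on wild-type array 1, above the 6.00 to 6.31 of the other wild-type arrays. Uqcrb, a subunit of complex III, was at 7.75 on wild-type array 5, below the 8.40 to 8.64 of the other wild-type arrays.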

How the results depend on the processing

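The count of members that passed at the gene level was 0 in every alternative run, and so was the count of member probe sets that passed. The median difference of the members ranged over the arrays left out in turn from -0.075 (without wild-type array 5) to -0.0016 (without wild-type array 2), and was -0.14 without wild-type arrays 4 and 5, -0.14 without replicates 4 and 5 of both genotypes, -0.021 with each array centred on its median and -0.058 with array weights. The centring also moved the members below 0 from 59 to 49 of 79 and all genes below 0 from 50.7% to 45.3%. Members with an unadjusted p under 0.05 (main value 6) numbered 20 without wild-type arrays 4 and 5 (25.3%, beside 11.2% of all genes). They numbered 9 without replicates 4 and 5 of both genotypes (11.4%, beside 7.14%) and 3 with each array centred on its median (3.8%, beside 6.07%). With the median over probe sets 2 were lower and 2 higher (5.06%, beside 5.72%). Members with changed exon usage numbered 0, but 1 without the intensity filter (beside 623 of all 20087 genes) and 2 with the replicate block (beside 448 of 16367). With 1 array left out they numbered 0 to 1. Same-numbered arrays of the 2 genotypes did not all deviate together, with correlations of 0.28, 0.082, 0.27, 0.41 and 0.24 for numbers 1 to 5, and not every array correlated best with its own number. The replicate block moved the members with an unadjusted p under 0.05 from 6 to 7, with a smallest adjusted p of 0.260 by limma. That was 8.86% of the members, beside 11% of all genes, which were at 6.98% without the block. The block also gave a changed exon usage for Ndufa3 and Ndufa4l2 and changed no other call of a member.

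Of 582 values of the named members under other alternatives, 58 had the opposite sign, none of them past the threshold; the cause was not tested. With each array centred on its median these were Cox6a2 0.00899, Cox6b1 0.00902, Ndufa3 0.00252, Ndufaf2 0.00231, Ndufv1 0.000496 and Ndufv2 0.011. Without the intensity filter they were Atp5b -0.033, Ndufa3 0.0315, Ndufaf2 0.018 and Ndufv2 0.00153. With the filter at the 75th percentile they were Atp5g1 0.058, Cox7a2l -0.044, Emc8 0.042, Ndufa3 0.091, Ndufaf2 0.049, Ndufv1 0.011 and Uqcrfs1 0.052. Without wild-type arrays 4 and 5 they were Atp5b -0.020, Cox7a2l -0.071, Cox7b -0.098, Ndufa4 -0.16, Ndufaf1 -0.089, Ndufs1 -0.10, Ndufs4 -0.14, Sdhb -0.046 and Uqcrb -0.10. With array weights they were Cox7a2 0.033, Ndufa4 -0.034 and Ndufs1 -0.014. With the median over probe sets they were Atp5b -0.0495, Atp5c1 0.0065, Atp5g1 0.53, Atp5l -0.043, Cox7a2l -0.044, Cox7b -0.27, Cox8b 0.019, Ndufa3 0.17, Ndufaf1 -0.000586, Ndufaf2 0.059, Ndufv1 0.096, Ndufv2 0.0061, Sdha 0.017, Sdhd 0.084, Uqcrfs1 0.28 and Uqcrq 0.045. Of the alternatives chosen after seeing the data, leaving out replicates 4 and 5 of both genotypes gave Atp5b -0.081, Cox7a2l -0.060, Cox7b -0.19, Cyc1 0.0061, Ndufa3 0.024, Ndufa4 -0.16, Ndufaf1 -0.00741, Ndufs1 -0.078, Ndufs4 -0.13, Ndufs5 -0.020, Sdhb -0.12 and Uqcrb -0.19, and centring each array on the median of all gene levels gave Atp5b -0.00066. With 1 array left out, 55 of 490 values had the opposite sign. These ranges were -0.032 to 0.063 for Atp5b, -0.044 to 0.019 for Cox6a2, -0.070 to 0.10 for Cox6b1, -0.10 to 0.082 for Cox7a2, -0.027 to 0.14 for Cox7b, -0.072 to 0.024 for Cyc1, -0.27 to 0.13 for Ndufa2, -0.075 to 0.055 for Ndufa3, -0.065 to 0.066 for Ndufa4, -0.013 to 0.16 for Ndufaf1, -0.060 to 0.045 for Ndufaf2, -0.038 to 0.084 for Ndufs1, -0.011 to 0.24 for Ndufs4, -0.14 to 0.056 for Ndufs8, -0.070 to 0.077 for Ndufv1, -0.057 to 0.027 for Ndufv2, -0.078 to 0.0039 for Sdha, -0.16 to 0.012 for Sdhd, -0.080 to 0.14 for Uqcrb, -0.13 to 0.0059 for Uqcrc2 and -0.087 to 0.00044 for Uqcrfs1. Klk8 ranged from -0.25 to -0.045 with 1 array left out. No slide or scan block was run. Precision is set by 5 arrays per genotype, with standard errors of the tested members from 0.067 to 0.25.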
